A study of Rattus norvegicus with 21 samples.

Results

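Livers of early weaned rats, with and without leucine, were compared together against control livers at day 211. The comparison used 9 of the 21 libraries of the study: 3 controls, 3 early weaned and 3 early weaned with leucine. For each gene the average of both early weaned group means was set against the control mean, and the genes of interest were those that passed the test and moved the same way in both early weaned groups, so that leucine had not restored them. There were 3 such genes among 15019 tested: an entry of Spsb2 was higher, and Clock and the small entry AC128792 were lower. With the counts of a similar or overlapping entry added, neither Spsb2 nor AC128792 passed.

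All 9 libraries were made from liver of SD rats. Controls and early weaned rats without leucine differ in the labels only by early weaning, the separation of pups from the dam earlier than is customary. The leucine group was early weaned as well and had 1.5% leucine in its drinking water. The labels give neither the sex, the diet, the age at weaning nor the days on which leucine was given, and no group had leucine without early weaning. The labels number the samples but do not say that each came from a separate animal, so the p-values rest on the spread among the samples at hand, which may be technical. The other 12 libraries came from Wistar rats at day 23 and day 63 and were used only to look up the same genes.

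The liver makes cholesterol and fatty acids from acetyl-CoA under transcription factors of the SREBP family, and burns fatty acids in mitochondria and peroxisomes under the nuclear receptor PPARA. The mevalonate pathway leads from acetyl-CoA to sterols, and carnitine carries long-chain fatty acids into mitochondria. Clock is one of the transcription factors that drive the daily rhythm of liver genes.

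Total counts of the 9 libraries ran from 52054644 to 75118153 count units, where a sequenced fragment was worth about 4 units, and 10250 to 11082 genes had at least 1 FPKM (fragments per kilobase of transcript, scaled for depth). The 9 hepatocyte markers, led by albumin, summed to 72454 to 78887 FPKM in controls, 71819 to 77924 in early weaned livers and 76193 to 84239 with leucine. The 4 erythroid markers summed to 510 to 1318 FPKM in controls, 920 to 2409 in early weaned livers and 1316 to 2426 with leucine. The 6 cholangiocyte markers summed to 8.26 to 13.5, 16.1 to 30.6 and 10.1 to 15.5 FPKM in the same order. Of the adipocyte markers 2 of 4 were at a count of 0 in every library, as were 2 of 4 pancreas markers and 1 of 4 neutrophil markers. In RNA from whole liver, fewer cells of a type and less RNA per cell cannot be told apart.

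Averaged over both early weaned groups, 3 of 15019 genes passed edgeR's quasi-likelihood test at a Benjamini-Hochberg adjusted p under 0.05, a share of 0.0200%. All 3 had the same sign in both groups. At an unadjusted p under 0.05 there were 2184 genes, of which 1033 were higher and 1151 lower. DESeq2 on the same counts called 627 genes, 337 higher (2.73% of 12364 genes with an adjusted p) and 290 lower (2.35%). Of the 627, 614 had the same sign in both groups. Of all 15019 genes, 5437 were higher and 4874 lower in each group. The 627 were picked on the average of both groups, which share their controls. Their agreement in sign, like that of the 3 genes, is therefore largely fixed by the choice. Of the 627, DESeq2 also called 134 for leucine against no leucine, so these differed between the early weaned groups. All 3 genes that edgeR called were among the 627, but of the 3 only AC128792 was among the 134. For leucine against no leucine the DESeq2 adjusted p was 0.947 for Clock and 0.884 for Spsb2. Without early weaned replicate 2 edgeR called 28 genes, and leaving out any other library gave 2 to 15.

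Clock was lower in every early weaned library than in every control. Its level was 2.56, 2.55 and 2.22 FPKM in controls, 0.51, 0.67 and 0.28 in early weaned livers, and 0.46, 0.47 and 0.26 with leucine. The control libraries lay close together, and the highest of the 6 early weaned libraries had 0.67 FPKM. Averaged over both groups Clock fell by 2.60 on the log2 scale (SE 0.28, edgeR adjusted p = 0.0202), which is 6.05-fold. The fall was −2.52 without leucine and −2.68 with it. The difference between the early weaned groups, leucine minus no leucine, was −0.16 with a 95% interval from −0.91 to 0.59 (adjusted p = 0.921). The tables place Clock (ENSRNOG00000002175) on chromosome 14 from 34446616 to 34502218 on the plus strand. The call was lost without any one of 5 libraries, with an adjusted p of up to 0.0650, although the log2 change stayed between −2.78 and −2.45. These were control replicates 2 and 3, early weaned replicate 1 and leucine replicates 1 and 2.

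Spsb2, which encodes a SPRY and SOCS box protein that serves as a substrate adaptor for ubiquitin ligases, had a count of 0 in the 3 controls. It stood at 4.07, 3.91 and 4.80 FPKM in early weaned livers and at 2.91, 2.29 and 4.37 with leucine. All 6 early weaned libraries were thus above the controls. Against a floor of 3 fragments, or 12 count units, per library this entry was at least 22.7-fold higher over both groups (edgeR adjusted p = 0.00259). The same floor gave 24.7-fold without leucine and 20.7-fold with it. The floor covers counting error of this entry only. It is no lower bound for the gene, since reads that also fit a second entry, described next, cannot be told apart. Leucine minus no leucine was −0.25 on the log2 scale, with a 95% interval from −0.96 to 0.46 (adjusted p = 0.832).

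The Spsb2 entry (ENSRNOG00000047113) lies on chromosome 9 from 20217278 to 20219209. A second entry, LOC100911548, described as Spsb2-like in RefSeq, lies on chromosome 4 from 157326727 to 157328379, and the RefSeq build GRCr8 places Spsb2 itself on chromosome 4. Counts of LOC100911548 were 273, 0 and 403 in controls, 373, 326 and 423 in early weaned livers, and 264, 182 and 376 with leucine. Wherever the chromosome 9 entry had counts at day 211, it held 0.864 to 0.933 times the count of the chromosome 4 entry. With both entries summed, an alternative chosen after seeing the data, the log2 change was 1.30 and no longer passed (edgeR adjusted p = 0.580). Reads that fit both copies cannot be told apart in these tables, so the level of the gene is uncertain.

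AC128792 (ENSRNOG00000036301) is an entry of 106 bases listed as a miRNA, on chromosome 1 from 101448331 to 101448436 on the minus strand. It stood at 551, 798 and 907 FPKM in controls, at 449, 391 and 588 in early weaned livers, and at 111, 83.6 and 82.5 with leucine. One early weaned library lay above the lowest control in FPKM, whereas in counts scaled for depth by TMM all 6 were below the controls. The averaged change was −1.99 on the log2 scale (SE 0.18, edgeR adjusted p = 0.00846). Unlike Clock and Spsb2, the entry differed between the early weaned groups: leucine minus no leucine was −2.20, with a 95% interval from −2.72 to −1.68 (adjusted p = 0.0130). It was thus lower still with leucine, and in a fit of all 6 early weaned libraries as 1 group its change of −1.60 did not pass (adjusted p = 0.327). The comparison of leucine against no leucine called 54 of 15019 genes, 0.360%, and AC128792 was the only one of the 3 shared genes among them. It was not called there without early weaned replicate 1, without leucine replicate 2, or when summed with the overlapping entry described next.

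The entry shares 91 of its 106 bases, on the same strand, with LOC100360087, a ferritin light chain-like gene. LOC100360087 stood at 1967, 2767 and 2700.0 FPKM in controls, 1796, 1409 and 1875 in early weaned livers, and 1734, 1451 and 2060.1 with leucine. Of the early weaned libraries, 1 with leucine lay above the lowest control. Its averaged change was −0.67 (SE 0.16, edgeR adjusted p = 0.175). With the counts of both entries summed, an alternative also chosen after seeing the data, the change was −0.71 (adjusted p = 0.166). Reads of such a short entry and of the gene over it cannot be told apart here. A further entry also named AC128792 lies on chromosome 1 from 101449902 to 101450071 on the plus strand. Its averaged change was −0.55 (edgeR adjusted p = 0.179), and leucine minus no leucine was 0.20 (0.712). Elsewhere AC128792 means the entry of 106 bases.

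**Figure D1:**
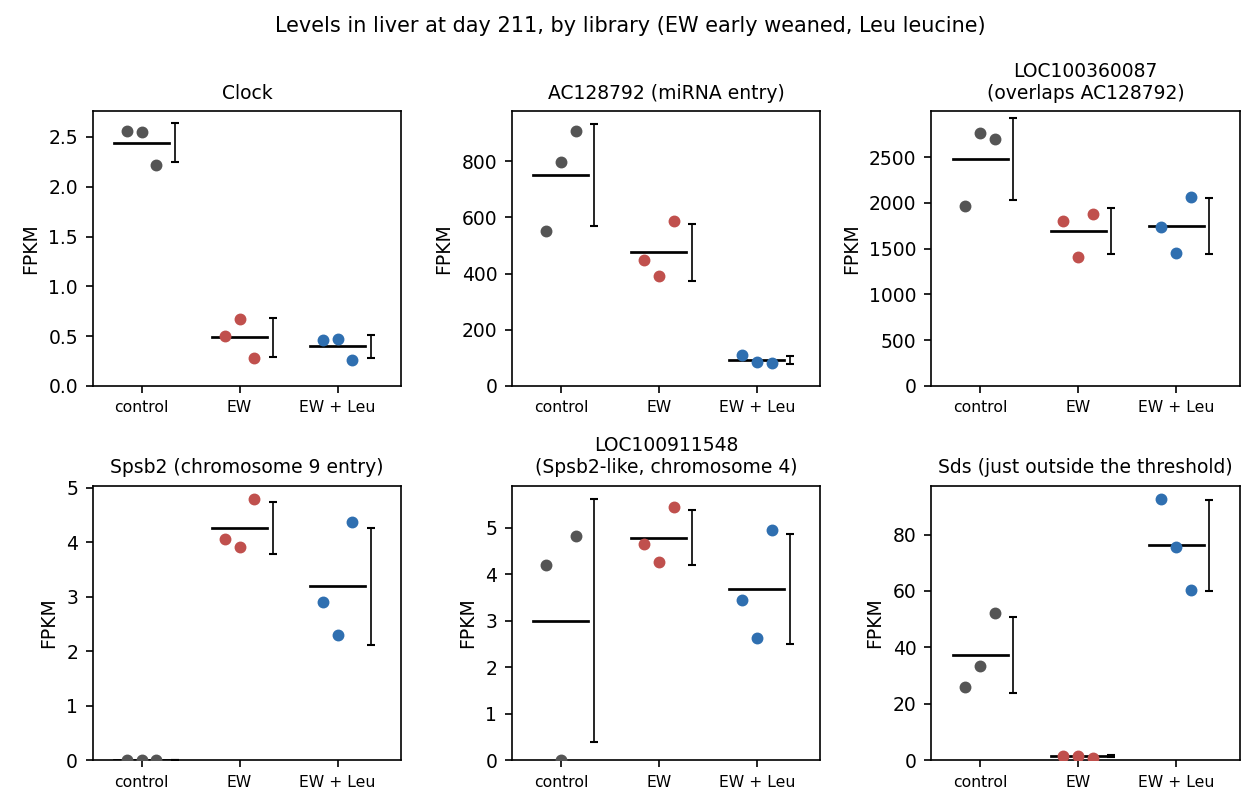
FPKM in each library (points) by group, with the group mean (line) and SD (bar, n = 3), for the 3 genes that passed, for the entries that overlap or resemble them, and for Sds. Clock is at most 0.67 FPKM in the 6 early weaned libraries and at least 2.22 in the 3 controls, and Sds is low only in the group without leucine.

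Just outside the threshold was Sds, serine dehydratase, an enzyme that breaks down serine (edgeR adjusted p = 0.0558). It did not behave as a shared gene. Its level was 25.9, 33.6 and 52.3 FPKM in controls, 1.43, 1.61 and 0.94 in early weaned livers, and 92.7, 75.5 and 60.5 with leucine. Its averaged log2 change of −2.02 joined −5.01 without leucine and 0.97 with it. Clock, at 0.0202, was the called gene nearest to the threshold from inside.

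The next genes by p did not pass, and are given as values. Among those higher were Irs3, an insulin receptor substrate, Epha3, an ephrin receptor, and Ikbke, a kinase of innate immune signalling. Irs3 stood at 1.65, 1.19 and 0.86 FPKM in controls, 13.2, 6.22 and 7.44 in early weaned livers, and 6.199, 9.17 and 3.08 with leucine. Its log2 change was 2.45 (SE 0.39, edgeR adjusted p = 0.0987), and no early weaned library overlapped a control. Ikbke stood at 2.68, 1.93 and 2.34 FPKM in controls, 9.45, 4.85 and 10.7 in early weaned livers, and 5.46, 5.86 and 4.61 with leucine, with a log2 change of 1.38 (edgeR adjusted p = 0.0987). Its 6 early weaned libraries were above every control. Epha3 had 2.32 (adjusted p = 0.0739), Dmd, the dystrophin gene, 1.83, and Adamdec1, a metalloprotease gene, 1.90. Alpk1, a kinase gene that overlaps Tifa on the other strand, had 1.68, the protease gene Prss36 had 1.70 and Fam169b had 1.65. By DESeq2, leucine minus no leucine was −1.51 for Alpk1 (adjusted p = 0.000104) and −1.31 for Adamdec1 (0.00253). Their rise was thus smaller with leucine, a difference that edgeR did not call. For the other genes of this paragraph it did not pass DESeq2.

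Among those lower was G0s2, an inhibitor of the triglyceride lipase ATGL, at 366, 182 and 225 FPKM in controls, 58.2, 102 and 61.6 in early weaned livers, and 104, 103 and 98.7 with leucine. The 6 early weaned libraries all lay below the lowest control. Its log2 change was −1.68 (SE 0.24, edgeR adjusted p = 0.0739). Slc22a23, an organic ion transporter family member, stood at 20.1, 18.5 and 18.8 FPKM in controls and at 7.63 to 11.5 in the early weaned libraries (log2 change −1.03, adjusted p = 0.0733). Hspa8, the constitutive HSP70 chaperone, had −0.93 (0.0822), and Abhd2, a lipid hydrolase, −1.22 (0.0739). Acot4, a peroxisomal acyl-CoA thioesterase, had −1.47, and Fdx1, the mitochondrial ferredoxin of steroid and bile acid hydroxylation, −0.56. Adck5 had −0.66.

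Cholesterol synthesis genes were higher in both early weaned groups, and none passed edgeR's test. All 21 tested members had a higher mean in each early weaned group, where 5437 of all 15019 genes did, and the median log2 change was 0.92 beside 0.01 over all genes. The median was 1.27 without leucine and 0.56 with it. Of the 21, 3 had all 6 early weaned libraries above the 3 controls in counts scaled by TMM (the scale of all such counts below), a state that 418 genes or 2.78% of all genes were in. Unadjusted p was under 0.05 for 17, all higher, beside 1033 of all 15019 genes. DESeq2 called 12 as higher, beside 2.73%. Fdps, farnesyl diphosphate synthase, stood at 99.7, 57.1 and 54.0 FPKM in controls, 191, 144 and 252 in early weaned livers, and 100.3, 162 and 102 with leucine. The lowest leucine library of Fdps therefore lay just above the highest control. Its log2 change was 1.00 (edgeR adjusted p = 0.177; DESeq2 0.00338). Mvk, mevalonate kinase, stood at 8.23, 6.72 and 6.86 FPKM in controls, 18.9, 13.1 and 30.7 in early weaned livers and 9.14, 12.01 and 10.6 with leucine, a log2 change of 0.89 (edgeR adjusted p = 0.179). Pmvk, the next kinase of the pathway, had 1.202 (edgeR adjusted p = 0.137), with 1.62 without and 0.79 with leucine. Leucine minus no leucine was −0.83 for Pmvk, with an interval from −1.41 to −0.25 (edgeR adjusted p = 0.183), so this difference did not pass edgeR's test, while it passed DESeq2's (adjusted p = 0.0462). Of the list, 0 genes were called for it by edgeR, and 8 had an unadjusted p under 0.05, beside 1964 of all 15019 genes.

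In the list of sterol sensing and uptake, 9 of 12 members had a higher averaged mean and 6 a higher mean in each group. The median was 0.27, and 0.161 without control replicate 3 or 0.172 without leucine replicate 2. Of the 12, 1 lay above the controls in all 6 libraries, beside 2.78% of all genes, and 0 passed edgeR. At an unadjusted p under 0.05 there were 5, all higher, beside 1033 of all 15019 genes. DESeq2 called 2 as higher, beside 2.73%. Insig1, which holds the SREBP precursor in the endoplasmic reticulum, stood at 47.3, 24.1 and 13.1 FPKM in controls, 262, 109 and 262 in early weaned livers, and 57.2, 165 and 36.3 with leucine. With leucine 1 library fell among the controls. Insig1 had a log2 change of 2.12 (edgeR adjusted p = 0.179). The sterol-regulated gene Tmem97 had 0.31.

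The stretches before the start of 3 genes of the sterol lists and of Acacb are printed as examples. These 4 genes were picked by hand and all hold the marked box, which not every member of their lists does. The capitals mark the CCAAT box, which is bound by the factor NF-Y, in either direction (CCAAT or ATTGG). The sequences are the 250 bases before the RefSeq start in build GRCr8, read 5′ to 3′ along the gene, all 4 genes lying on the minus strand.
Mvk, chr12:47819504-47819753: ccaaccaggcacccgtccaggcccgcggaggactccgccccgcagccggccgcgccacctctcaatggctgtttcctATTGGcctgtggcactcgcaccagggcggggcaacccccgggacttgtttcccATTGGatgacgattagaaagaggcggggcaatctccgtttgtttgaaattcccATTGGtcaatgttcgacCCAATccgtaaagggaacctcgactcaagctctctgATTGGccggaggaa
Fdps, chr2:176804817-176805066: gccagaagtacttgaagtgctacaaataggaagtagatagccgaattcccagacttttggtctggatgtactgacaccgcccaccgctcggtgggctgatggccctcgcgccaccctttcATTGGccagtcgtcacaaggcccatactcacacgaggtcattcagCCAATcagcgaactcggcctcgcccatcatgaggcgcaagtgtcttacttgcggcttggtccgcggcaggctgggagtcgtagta
Insig1, chr4:8057770-8058019: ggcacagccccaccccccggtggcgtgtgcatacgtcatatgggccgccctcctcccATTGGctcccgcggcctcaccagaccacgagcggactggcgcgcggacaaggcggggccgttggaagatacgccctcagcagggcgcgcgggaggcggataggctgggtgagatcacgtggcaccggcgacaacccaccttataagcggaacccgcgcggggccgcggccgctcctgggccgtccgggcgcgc
Acacb, chr12:48138215-48138464: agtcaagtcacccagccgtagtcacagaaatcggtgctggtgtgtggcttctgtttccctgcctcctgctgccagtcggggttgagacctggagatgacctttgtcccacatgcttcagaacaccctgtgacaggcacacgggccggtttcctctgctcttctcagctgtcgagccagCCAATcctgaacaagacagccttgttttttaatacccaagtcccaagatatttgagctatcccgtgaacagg

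Mvk held 5 such boxes, Fdps 2 and the other two 1 each. Of the 21 cholesterol synthesis genes 16 matched a window in the RefSeq table, and 12 of these, 75%, held a CCAAT box, beside 36.1% of all 27457 genes with a window. The share was 66.7% (10 of 15) for fatty acid and triglyceride synthesis and 25% (4 of 16) for mitochondrial beta-oxidation, and 42.1% (8 of 19) for PPARA targets and peroxisomal oxidation. The sterol element core TCACNCCAC was found in 0 of the 16 cholesterol synthesis windows and in 1.09% of all genes, and says only that these letters are not in these 250 bases. The searched motifs do not contain each other, and a match is not a shown binding site. The shares over all genes cover every gene with a window, not only those tested in liver. A link between the motifs and the changes was not tested.

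In the list of fatty acid and triglyceride synthesis 17 of 20 members had a higher averaged mean and 15 a higher mean in each group, with a median log2 change of 0.84 (0.78 without leucine and 1.11 with it). None passed edgeR. Of the 20, 6 had no overlap with the controls, beside 2.78% of all genes. At an unadjusted p under 0.05 there were 13 higher and 1 lower, beside 1033 and 1151 of all 15019 genes. DESeq2 called 8 as higher, beside 2.73%. Acacb, the acetyl-CoA carboxylase whose product blocks fatty acid entry into mitochondria, stood at 9.64, 6.32 and 5.52 FPKM in controls, 36.2, 22.5 and 25.5 in early weaned livers, and 18.9, 29.6 and 12.5 with leucine. The change in Acacb was 1.61 (edgeR adjusted p = 0.115), with 1.76 without and 1.45 with leucine. Acss2, which makes acetyl-CoA from acetate, stood at 18.7, 8.58 and 7.08 FPKM in controls and at 22.6 to 61.1 in the early weaned libraries (log2 change 1.53, adjusted p = 0.179). Pnpla3, a lipid droplet protein, varied most: 1.02, 0.28 and 0.19 FPKM in controls, 53.6, 7.36 and 38.6 in early weaned livers, and 4.55, 58.3 and 1.23 with leucine. Pnpla3 had a log2 change of 5.61 (adjusted p = 0.179), and 1 leucine library lay close to the highest control. Dgat2, which makes triglyceride and is named after its values were seen, differed from these: it had −1.28 without leucine and 0.07 with it, a difference of 1.35 (edgeR adjusted p = 0.0492).

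Mitochondrial beta-oxidation genes were lower, 19 of 19 by their averaged mean and 16 in each group (4874 of all 15019 genes were lower in each), with a median of −0.46 (−0.58 without and −0.38 with leucine). Of these 7 had all 6 early weaned libraries below the 3 controls, beside 506 or 3.37% of all genes, and none passed edgeR. Lower at an unadjusted p under 0.05 were 11, beside 1151 of all 15019 genes. DESeq2 called 8 as lower, beside 2.35%. Acaa2, the thiolase of the last step, stood at 469, 530 and 494 FPKM in controls, 347, 384 and 365 in early weaned livers, and 336, 211 and 324 with leucine. For Acaa2 the log2 change was −0.75 (edgeR adjusted p = 0.156), and leucine minus no leucine was −0.18 (0.797). Slc25a20, the carnitine-acylcarnitine carrier, stood at 74.0, 72.8 and 68.8 FPKM in controls, 48.6, 50.2 and 47.5 in early weaned livers, and 45.5, 49.1 and 67.9 with leucine. One leucine library was thus near the controls. The log2 change of Slc25a20 was −0.62 (edgeR adjusted p = 0.158). Etfb, a subunit of the flavoprotein that takes the electrons of beta-oxidation, had −0.46 (0.177). For this list edgeR called 0 genes between the early weaned groups, with 1 at an unadjusted p under 0.05, beside 1964 of all 15019 genes.

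Of 23 PPARA targets and peroxisomal oxidation genes 21 were lower by their averaged mean and 16 in each group, with a median of −0.51 (−0.58 without and −0.65 with leucine). Of the 23, 7 lay below the controls in all 6 libraries, beside 3.37% of all genes, and none passed edgeR. An unadjusted p under 0.05 was found for 9, lower in each case, beside 1151 of all 15019 genes, and DESeq2 called 8, beside 2.35%. Fgf21, a hormone of the fasting liver, stood at 41.2, 16.6 and 36.0 FPKM in controls, 11.2, 7.95 and 16.1 in early weaned livers, and 6.45, 6.26 and 11.4 with leucine. Its highest early weaned library lay just below the lowest control. The log2 change was −1.81 (edgeR adjusted p = 0.108). Acot4 stood at 13.0, 15.1 and 9.97 FPKM in controls, 9.64, 5.05 and 4.44 in early weaned livers and 3.76, 3.65 and 4.63 with leucine. Cyp4a2, a fatty acid omega-hydroxylase with close copies in the genome, had −1.57 (adjusted p = 0.156). Its level of 35.8 to 133 FPKM with leucine lay below the 210 to 365 of controls. Leucine minus no leucine was −0.38 for Fgf21 (95% interval −1.20 to 0.45), −0.50 for Acot4 (−1.13 to 0.13) and −0.57 for Cyp4a2 (−1.50 to 0.37), and none passed. Over the whole list 7 of the 23 had an unadjusted p under 0.05 for that difference, beside 1964 of all 15019 genes, and edgeR called 0. The direct repeat that PPARA binds was found before the start of 1 of 19 genes of this list and of 0.379% of all genes, within 250 bases on either strand.

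**Figure D2:**
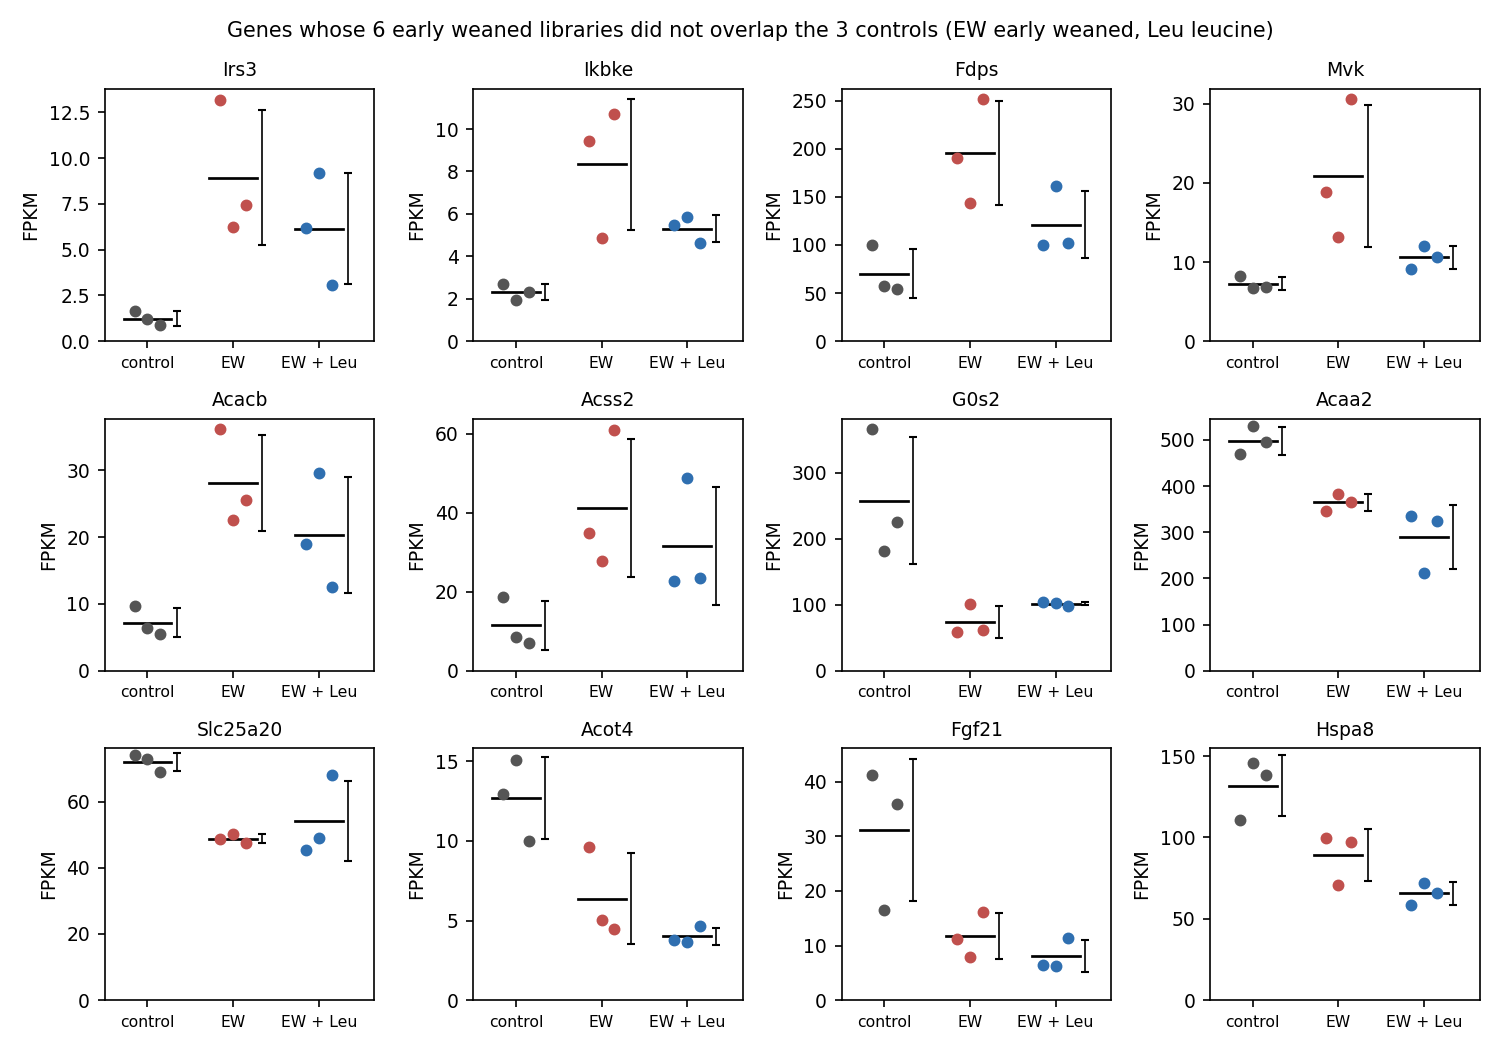
FPKM in each library (points) by group for 12 genes whose 6 early weaned libraries did not overlap the 3 controls, with the group mean (line) and SD (bar, n = 3). The upper rows include the genes that were higher, such as Irs3 and Acacb, and the lower rows those that were lower, such as G0s2 and Fgf21; none of the 12 passed edgeR's test.

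Sterol efflux and lipoprotein genes had a lower averaged mean in 20 of 23 cases and a lower mean in each group in 17. The median was −0.30 (−0.47 without and −0.13 with leucine), but −0.17 with library size alone and −0.11 by limma on log2(FPKM + 1). For leucine against no leucine 9 of the 23 had an unadjusted p under 0.05, beside 1964 of all 15019 genes. EdgeR called 0 of them for that difference. Of the 23, 3 lay below the controls in all 6 libraries, beside 3.37% of all genes, and DESeq2 called 6, beside 2.35%. Apoa5, an activator of lipoprotein lipase, stood at 628, 660 and 637 FPKM in controls, 435, 492 and 464 in early weaned livers, and 449, 342 and 337 with leucine. Its log2 change was −0.75 (edgeR adjusted p = 0.108), about as large with leucine (−0.83) as without (−0.68). Lcat, which esterifies cholesterol in plasma, had −0.61 (0.156). Abcg5, a subunit of the sterol exporter, had −2.18 on average, but −3.90 without and −0.46 with leucine. Of 19 bile acid genes 16 had a lower averaged mean (median −0.22, or −0.0889 with library size alone), but 9 were lower and 2 higher in each group. In scaled counts 1 member, the bile acid importer gene Slc10a1, lay below the controls in all 6 libraries, beside 3.37% of all genes. In FPKM 1 leucine library of Slc10a1 (322) lay above the lowest control (317). Slc10a1 had −0.52 (0.203), Akr1c14 −0.67 and Amacr −0.88. By DESeq2, leucine minus no leucine was 0.80 for Akr1c14 (adjusted p = 0.00249) and 0.96 for Amacr (0.0210). Their falls were thus smaller with leucine. The bile acid median was −0.49 without and −0.18 with leucine. Between the early weaned groups 7 of the 19 had an unadjusted p under 0.05, beside 1964 of all 15019 genes, and edgeR called 0.

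The list of genes that the factor ATF4 switches on when amino acids are short had 13 of 15 members with a lower averaged mean and 10 with a lower mean in each group. The median was −0.65 (−0.59 without and −0.73 with leucine), but −0.182 and −0.276 by limma on log2(FPKM + 1) and log2(FPKM + 0.1). Of the 15, 3 lay below the controls in all 6 libraries, beside 3.37% of all genes. Slc3a2, the heavy chain of amino acid exchangers, stood at 37.4, 54.2 and 42.5 FPKM in controls, 37.3, 28.6 and 35.9 in early weaned livers, and 24.5, 27.9 and 35.2 with leucine (log2 change −0.65, edgeR adjusted p = 0.178). Atf5 had −0.79 (0.157) and Psat1, of serine synthesis, −1.61 (0.223). Psat1 was high in 1 control alone, at 7.04 FPKM beside 1.55 and 1.91. Of 16 heat shock and endoplasmic reticulum chaperone genes 13 had a lower averaged mean (median −0.34, or −0.195 with library size alone), 12 were lower in each group, and 3 lay below the controls in all 6 libraries, beside 3.37% of all genes. Hspa8 stood at 110, 146 and 139 FPKM in controls, 99.9, 71.1 and 97.4 in early weaned livers, and 58.4, 72.3 and 66.1 with leucine. Hsph1, a partner of Hspa8, had −0.94 (0.143) and Herpud1 −0.68 (0.180).

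All 13 mitochondrially encoded transcripts had a lower averaged mean in the early weaned livers too, and 10 were lower in each group (median −0.36, or −0.226 with library size alone, with −0.51 without and −0.20 with leucine), and 0 of them lay outside the controls in all 6 libraries. Mt-nd1 had −0.49 (edgeR adjusted p = 0.179) and Mt-nd2 −0.53. The 9 hepatocyte markers had a median of −0.17. The part of either in the changes of the metabolic lists was not tested.

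**Figure D3:**
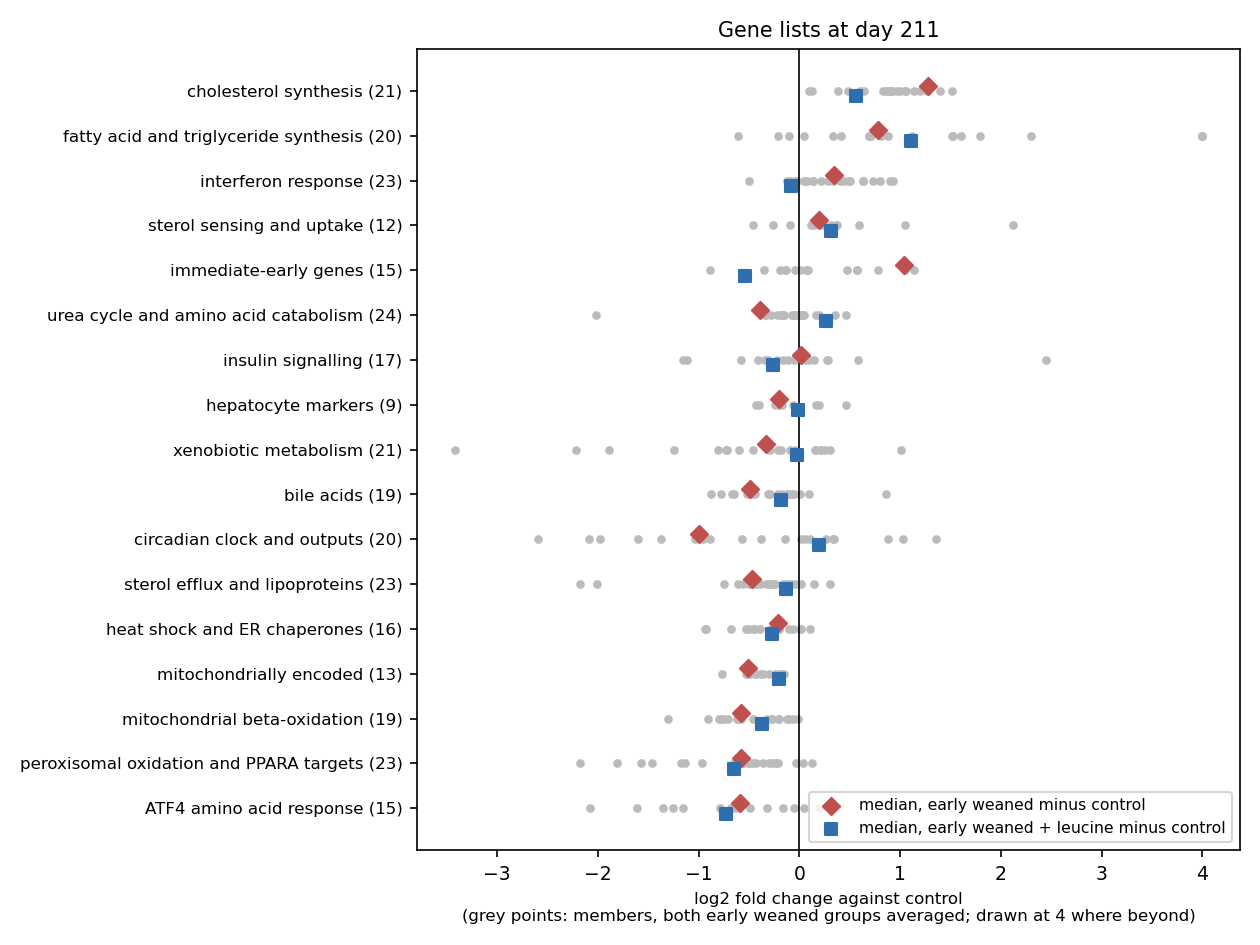
Log2 fold change against control for members of 17 gene lists (grey points, both early weaned groups averaged) with the list median in each early weaned group; the number of tested members stands in parentheses. The medians of both groups lie on the same side of 0 for cholesterol synthesis (1.27 and 0.56) and beta-oxidation (−0.58 and −0.38), and on opposite sides for circadian genes (−0.99 and 0.19).

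The circadian list as a whole had no common direction. It had a median of −0.99 without leucine and 0.19 with it, with 9 of 20 members higher on average. All 6 libraries lay above the controls for 1 member, beside 2.78% of all genes. They lay below them for 1, which was Clock, beside 3.37% of all genes. Hlf, a clock-driven transcription factor, stood at 10.7, 6.01 and 8.74 FPKM in controls, 1.92, 2.15 and 2.27 in early weaned livers, and 10.2, 8.62 and 9.77 with leucine. Hlf therefore stood among the controls with leucine. The averaged circadian median of −0.27 was 0.01 by limma on log2(FPKM + 1) and 0.04 in a fit of 6 libraries against 3. The labels do not give the hour at which livers were taken.

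The lists of urea cycle and amino acid catabolism, immediate-early and interferon-response genes also had medians of opposite sign in the groups. The urea cycle list had −0.39 without and 0.26 with leucine, although Ass1, argininosuccinate synthase, was above the controls in all 6 libraries (log2 change 0.46, edgeR adjusted p = 0.207). Of the 24 members of that list 1 was in this state, beside 2.78% of all genes. The immediate-early list had 1.04 and −0.54. Klf6, a member of it, stood at 0.69, 0.89 and 0.69 FPKM in controls, 4.67, 2.54 and 4.39 in early weaned livers, and 0.63, 0.84 and 0.89 with leucine. The interferon list had 0.34 and −0.09. In the xenobiotic list 14 of 21 members had a lower averaged mean (median −0.21, or −0.0749 with library size alone), and 9 were lower and 4 higher in each group. The median was −0.33 without and −0.03 with leucine. For leucine against no leucine 12 of the 21 had an unadjusted p under 0.05, beside 1964 of all 15019 genes. EdgeR called 2 for that difference, both higher with leucine, beside 0.360% of all genes. The sulfotransferase gene Sult2a1 of this list stood at 145, 239 and 178 FPKM in controls, 18.6, 51.4 and 24.4 in early weaned livers, and 105, 91.9 and 94.6 with leucine. It lay below the controls in all 6 (log2 change −1.89, edgeR adjusted p = 0.108). By DESeq2, leucine minus no leucine was 1.75 for Sult2a1 (adjusted p = 0.000164), so its fall was smaller with leucine. Of the 21 xenobiotic members 2 lay below the controls in all 6 libraries, beside 3.37% of all genes. Insulin signalling had 7 of 17 members higher on average, with 5 higher and 6 lower in each group. Its medians, 0.01 without and −0.27 with leucine, were of opposite sign too. Irs3 lay above the controls in all 6 libraries, beside 2.78% of all genes, and Igfals and Trib3 lay below them, beside 3.37%. In FPKM 1 early weaned library of Igfals (169) and 1 of Trib3 (4.86) lay above the lowest control (163 and 4.49). Trib3, an inhibitor of insulin signalling through AKT that is named after its values were seen, had −1.15 (edgeR adjusted p = 0.247). Sesn1, a stress-induced regulator of growth signalling, had 0.59, and Igfals, which carries IGF1 in plasma, −0.58.

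Over all genes, 924 had their 6 early weaned libraries entirely above (418) or below (506) the 3 controls. In 820 of these the change with leucine was at least 0.5 times the change without it, and in 104 it was smaller. A change of at least 2-fold in both groups was present in 114 of the higher and 39 of the lower genes. Genes whose early weaned libraries all lie on one side must have both groups on that side, so these counts describe the choice and are no test of leucine. In the comparison of leucine against no leucine 2 of the 924 passed edgeR's test, AC128792 among them, beside 0.360% of all genes. That count too is partly fixed by the choice, since a gene that leucine brought back among the controls cannot be one of the 924.

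**Figure D4:**
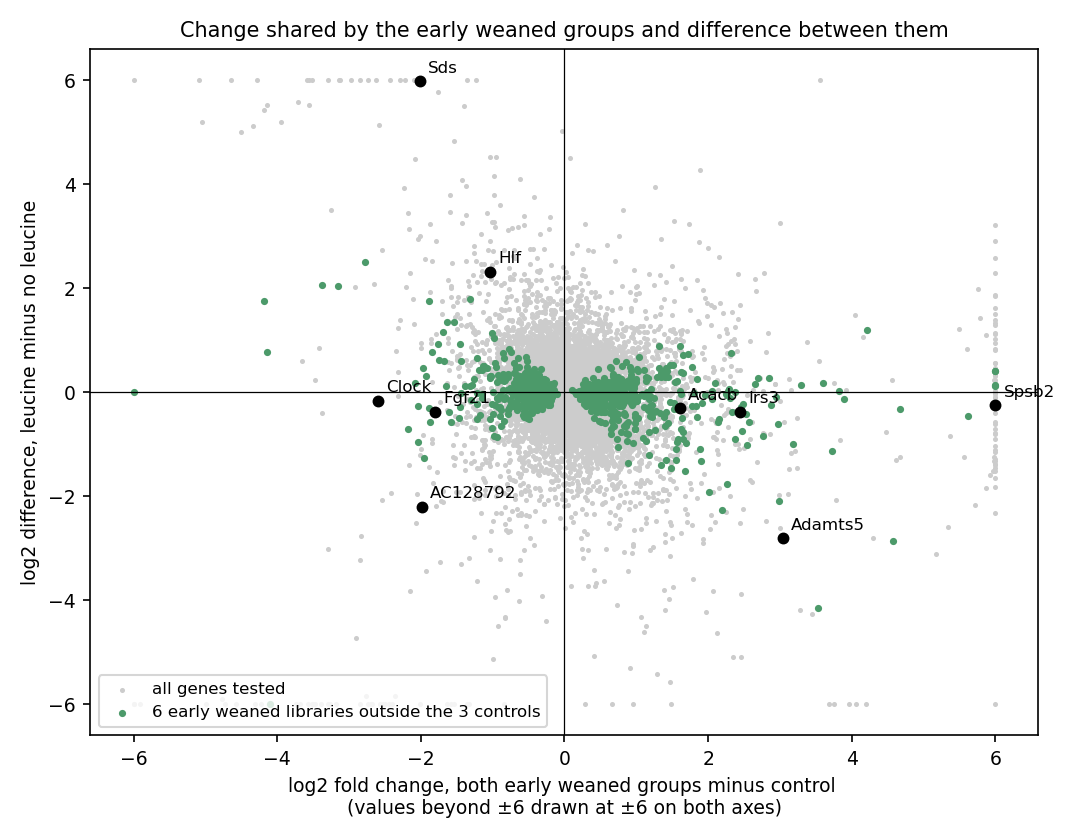
Each tested gene by its log2 change averaged over both early weaned groups (x axis) and by the log2 difference of leucine minus no leucine (y axis), with the 924 genes without overlap in green and 9 genes named. Clock, Irs3, Acacb and Fgf21 lie near 0 on the y axis, whereas Sds (5.98) and Hlf (2.32) lie far above it. AC128792 (−2.20) and the green gene Adamts5 (−2.81 by DESeq2) lie below it.

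In the Wistar livers, a different strain at other ages, none of the 3 genes passed edgeR, while DESeq2 called Spsb2 at day 23. That call rested on 1 early weaned library with 126 counts, the other 5 libraries of that age having 0. At day 63 Spsb2 had counts in 2 of 3 controls and 1 of 3 early weaned libraries. EdgeR called 2 of 15416 genes at day 23, 0.0130%, and 0 at day 63, which is 0%. At an unadjusted p under 0.05 there were 956 and 933 genes, and DESeq2 called 113 and 94. Clock stood at 2.34, 3.0 and 0.54 FPKM in controls and 2.36, 0.80 and 0.55 in early weaned livers at day 23. At day 63 it stood at 0.68, 1.07 and 0.31 in controls and 0.41, 2.82 and 1.45 in early weaned livers. The groups overlapped at both ages, and within a group Clock varied over the range that separated the groups at day 211. Spsb2 was at a count of 0 in 8 of the 12 Wistar libraries, and in the other 4 it reached 0.930 to 1.01 times the count of LOC100911548. AC128792 ran from 287 to 1382 FPKM with overlapping groups. Of the 924 genes without overlap at day 211, 914 were tested in the Wistar table and 0 passed edgeR at either age, with 55 and 43 at an unadjusted p under 0.05. G0s2 stood at 0.57, 0.85 and 115 FPKM in day 23 controls, so 1 of these libraries stood apart from the other two for it.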

How the data were processed

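RNA-seq of liver was compared at day 211 in 9 libraries, grouped by their labels. Per the labels' protocols, a Qiagen RNeasy kit gave the RNA and a SMARTER mRNA-Seq kit the libraries; strand-specific counting is not stated. No aligner or counting tool is named in the sources used here. GRCm38 and mm10, which are mouse builds, stand in the submitters' processing notes. The gene identifiers are nevertheless those of rat in Ensembl, and coordinates are printed unchanged from the tables, whose rat build is unnamed.

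Per the file headers, the authors deposited counts and FPKM for 32623 genes in each table. The deposited counts are estimated counts written as whole numbers, which needed no rounding; low values pile up near multiples of 4, so a fragment is worth about 4 units. The authors' FPKM values are normalized for length and depth, and an FPKM of 0.0001 at a count of 0 was set to 0.

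The day 211 table was fitted alone with edgeR 4.0.16 in R 4.3.3: a mean per group, TMM scaling, filterByExpr at a minimum count of 10, quasi-likelihood tests (two-sided), and p-values adjusted over all 15019 genes by Benjamini-Hochberg. Standard errors and 95% intervals come from its F statistic. The biological coefficient of variation was 0.379. The Wistar table was fitted alone in the same way. A count of 0 was read against a floor of 3 fragments per library, which covers counting error only.

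The 250 bases before gene starts came from RefSeq (GRCr8). Named genes are the genes called, the genes of smallest p up to 10 per direction at a mean of at least 1 FPKM, up to 3 members of smallest p per list, and the genes next to the threshold; some genes that this rule takes are not reported here. There were 34 lists with 468 of 488 symbols in the table, described by counts and medians with no test. The genes of interest and the lists were chosen with earlier results of these data known. Alternatives were edgeR's RLE factors, library size alone, no filter, DESeq2 1.42.0, limma 3.58.1 on log2(FPKM + 1) and log2(FPKM + 0.1), a replicate block, a fit with 2 groups, counts divided by 4, a robust spread and leaving out each library.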

Additional observations from a re-analysis of the deposited data

Results flagged for a closer look

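Of the named genes, 5 differed between the early weaned groups by a test of that difference, leucine minus no leucine (edgeR, adjusted over all genes). Sds differed by 5.98 on the log2 scale (adjusted p = 0.000478), with −5.01 against control without leucine and 0.97 with it. Hlf differed by 2.32 (0.00908), with −2.19 and 0.13. Klf6 differed by −2.12 (0.0225), with 2.11 and −0.01. AC128792 differed by −2.20 (0.0130), with −0.89 and −3.09, and is the only one of the 5 whose change had the same sign in both groups. Its difference was not called without early weaned replicate 1, without leucine replicate 2, or when its counts were summed with those of LOC100360087. Dgat2 differed by 1.35 (0.0492), with −1.28 and 0.07. In each of these genes the 3 leucine libraries lay on one side of the 3 libraries without it.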

How the results depend on the processing

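Clock, Spsb2 and AC128792 all passed with edgeR's RLE factors, library size alone, no filter, DESeq2, limma on log2(FPKM + 1), counts divided by 4 and a robust spread. Library size alone moved the median of all genes from 0.01 to 0.15 on the log2 scale, and limma moved it to 0.10 and 0.12. Genes called numbered 9 with no filter (3 higher, 6 lower, 8 of the same sign in both groups) and 627 with DESeq2 (337, 290 and 614), which also called 1 of the 3 in Wistar. On log2(FPKM + 0.1) limma called 2 genes, 1 of them lower, and Clock missed (adjusted p = 0.0927). A fit of 6 libraries against 3 called 2, 1 of them lower. Summing the Spsb2 entries left 0 genes higher, and summing AC128792 with LOC100360087 left 1 lower and 0 called for leucine against no leucine; both sums were chosen after seeing the data.

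Leaving out 1 library at a time gave 2 to 28 genes called (1 to 18 higher, 1 to 10 lower, 2 to 25 of the same sign, 0 to 1 of the 3 called for leucine), with adjusted p of 0.00201 to 0.0197 for Spsb2, 0.00432 to 0.0466 for AC128792 and 0.00918 to 0.0650 for Clock.

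The median of the efflux and lipoprotein list was −0.169 with library size alone, −0.107 and −0.137 with limma, and −0.459 to −0.207 without 1 library. The chaperone median was −0.195 with library size alone and −0.202 on log2(FPKM + 1), and the ATF4 median was −0.182 and −0.276 with limma. Circadian medians were 0.0108 and −0.00710 with limma and 0.0434 in the fit of 6 against 3, where the immediate-early median was 0.351 (−0.00684 to 0.388 without 1 library). Hepatocyte markers had −0.0174 with library size alone, −0.0260 and −0.0261 with limma, and −0.205 to −0.00356 without 1 library. With library size alone the bile acid median was −0.0889, the xenobiotic −0.0749 and the mitochondrially encoded −0.226. The sterol sensing median ran from 0.161 to 0.370 without 1 library. The insulin median ran from −0.225 to 0.114, the latter without control replicate 2. The cause of these shifts was not tested. For single genes no sign reversed: 1320 values kept their side of the threshold, 78 passed in addition and 9 no longer passed.

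No pairing by replicate number was seen: deviations of same-numbered libraries correlated at −0.0902 to 0.122, and 3 of 9 libraries correlated best with their own number. With 3 libraries per number these values cannot show that there was no pairing. With the replicate block 4 genes were called, the same 3 (adjusted p = 0.0265 for Spsb2, 0.0461 for AC128792 and 0.0213 for Clock) and UST4r, which is named after its values were seen. Depth limits what 0 counts can show to 12 count units per library, and 3 libraries per group limit the precision of each difference.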
